A study of Mus musculus with 198 samples.

Results

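Kit, Flt3, Meis1, Gata2, Myb, Cd34 and Mecom are 7 of the 56332 genes counted, and they encode surface receptors and transcription factors of blood stem and progenitor cells. They were followed by gene name in bone marrow and spleen first, and then in lung, heart, kidney, liver, skin, gonadal fat and subscapular fat. The list had been picked from the difference between treatment arms in bone marrow, so the marrow difference is described below without a test, while the levels over tissues, the sexes and the arms in the other tissues did not enter that choice. RNA-seq had been carried out on whole tissues of 22 C57BL/6 mice that received a control or an antibody against PAPP-A (aPAPPA) for 17 weeks. PAPP-A is a secreted protease that cleaves insulin-like growth factor binding proteins. The control arm held 12 mice, 6 of each sex, and the anti-PAPP-A arm held 10 mice, 5 of each sex, and every mouse gave 1 library of each of the 9 tissues, which makes 22 libraries per tissue. No allele, transgene or other agent is named for either arm, and the age of the mice, the dose and the kind of control are not given in the labels.

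Blood cells are renewed from stem cells that sit mostly in the bone marrow and, in the mouse, also in the spleen. Kit, the receptor for stem cell factor, and Flt3, the receptor for Flt3 ligand, carry signals for survival and division into these cells, with Flt3 rising as progenitors move toward lymphoid and dendritic fates. Cd34 is a sialomucin of progenitor and endothelial surfaces. Gata2, Meis1, Mecom and Myb are transcription factors: Gata2 and Mecom maintain the stem cell pool, Meis1 acts as a partner of Hox proteins, and Myb is needed by dividing progenitors of many blood lineages. Outside blood, Kit marks mast cells and melanocytes, Cd34 and Mecom are made by endothelium, and Cd34 also marks fibroblast-like cells of fat.

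On mm10, in the GENCODE vM21 annotation, all 7 were protein-coding genes. Kit spans chr5:75574916-75656722 on the plus strand and Flt3 lies on the same chromosome at chr5:147330741-147400489 on the minus strand. Cd34 is at chr1:194938819-194961279 (plus), Meis1 at chr11:18879817-19018985 (minus), Gata2 at chr6:88193891-88207032 (plus), Myb at chr10:21124935-21160984 (minus) and Mecom at chr3:29951296-30548008 (minus). RefSeq promoter sequences (GRCm38.p6) were matched for all 7 genes, with 10 start sites in total. The 250 bases before a start are shown for Myb, the only member highest in bone marrow, and for Cd34, which was measured in every tissue. They are given on the gene's own strand, with CG dinucleotides in capitals.
Myb (chr10:21160985-21161234, minus strand): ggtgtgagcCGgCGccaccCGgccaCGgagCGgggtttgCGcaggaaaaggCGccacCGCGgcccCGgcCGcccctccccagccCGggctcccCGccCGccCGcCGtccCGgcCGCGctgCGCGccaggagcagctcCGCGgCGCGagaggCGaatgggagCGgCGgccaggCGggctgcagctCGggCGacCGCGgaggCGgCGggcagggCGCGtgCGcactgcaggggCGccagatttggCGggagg
Cd34 (chr1:194938571-194938820, plus strand): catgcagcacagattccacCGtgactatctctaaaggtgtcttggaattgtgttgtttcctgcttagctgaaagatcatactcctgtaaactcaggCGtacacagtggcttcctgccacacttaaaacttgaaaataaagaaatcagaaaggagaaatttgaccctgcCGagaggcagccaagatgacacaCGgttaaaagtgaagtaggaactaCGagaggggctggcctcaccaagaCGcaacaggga
The Myb promoter holds 40 CG dinucleotides and is 81.2% G and C, and 98.7% of 32851 mouse promoter windows of this length hold fewer. That of Cd34 holds 6, which equals the median of all windows, at 46.4% G and C against a median of 52.4%. The other members' windows lie between these, with 8 to 24 CG dinucleotides. Short words known as core binding motifs were searched on both strands. The GATA word AGATAA (in 9.99% of all windows), the Myb word CAACTG (11.14%) and the E-box word CAGCTG (in 4271 of 32851 windows) were in none of the 10 windows. The ETS word AGGAAG (29.48%) was in the windows of Kit and Cd34, the Runx word TGTGGT (14.05%) in that of Meis1, and the Meis word TGACAG (15.86%) in 1 of the Mecom windows.

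Levels are given as CPM, counts scaled to a common total of the counts outside 9 abundant features, chiefly ribosomal RNA, which took 47.39% to 99.5% of a library. Total counts ran from 4138419 to 19517950 per library, and the usable counts outside those features from 33377 to 4694597 with a median of 1099966.5, so a gene at 1 CPM rested on about 1 count in a typical library. Marrow carried mature neutrophil genes (mean log2 CPM 9.74 to 10.9 over the libraries) and spleen carried B cell genes (7.99 to 8.97). Low tissue markers or few counted genes set 5 libraries apart: the lung of control male 68, the hearts of control female 22 and treated male 56, the gonadal fat of treated male 58 and the skin of treated female 36. The lung library of control male 68 held Sftpc, a surfactant gene, at 1.42 CPM against 2084 to 11047 CPM in the other lungs. It also held the adipocyte genes Adipoq at 1225 CPM and Fabp4 at 3857 CPM, against at most 491 and 1217 CPM in the other lungs. The heart library of treated male 56 held the immature T cell genes Rag1 at 3264 CPM and Dntt at 775 CPM, against at most 31.0 and 5.16 CPM in the other hearts. The subscapular fat of control female 20 held the 5 B cell genes at a mean log2 CPM of 7.87, against at most 2.91 in the other subscapular fat libraries.

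In control mice the members did not share 1 tissue pattern, and bone marrow was the leading tissue for Myb alone. Lung had the highest mean for 4 of the 7 (Kit, Meis1, Gata2 and Mecom), spleen for Flt3 and gonadal fat for Cd34. In bulk tissue, fewer cells of a type and less RNA per cell cannot be told apart.

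**Figure D1:**
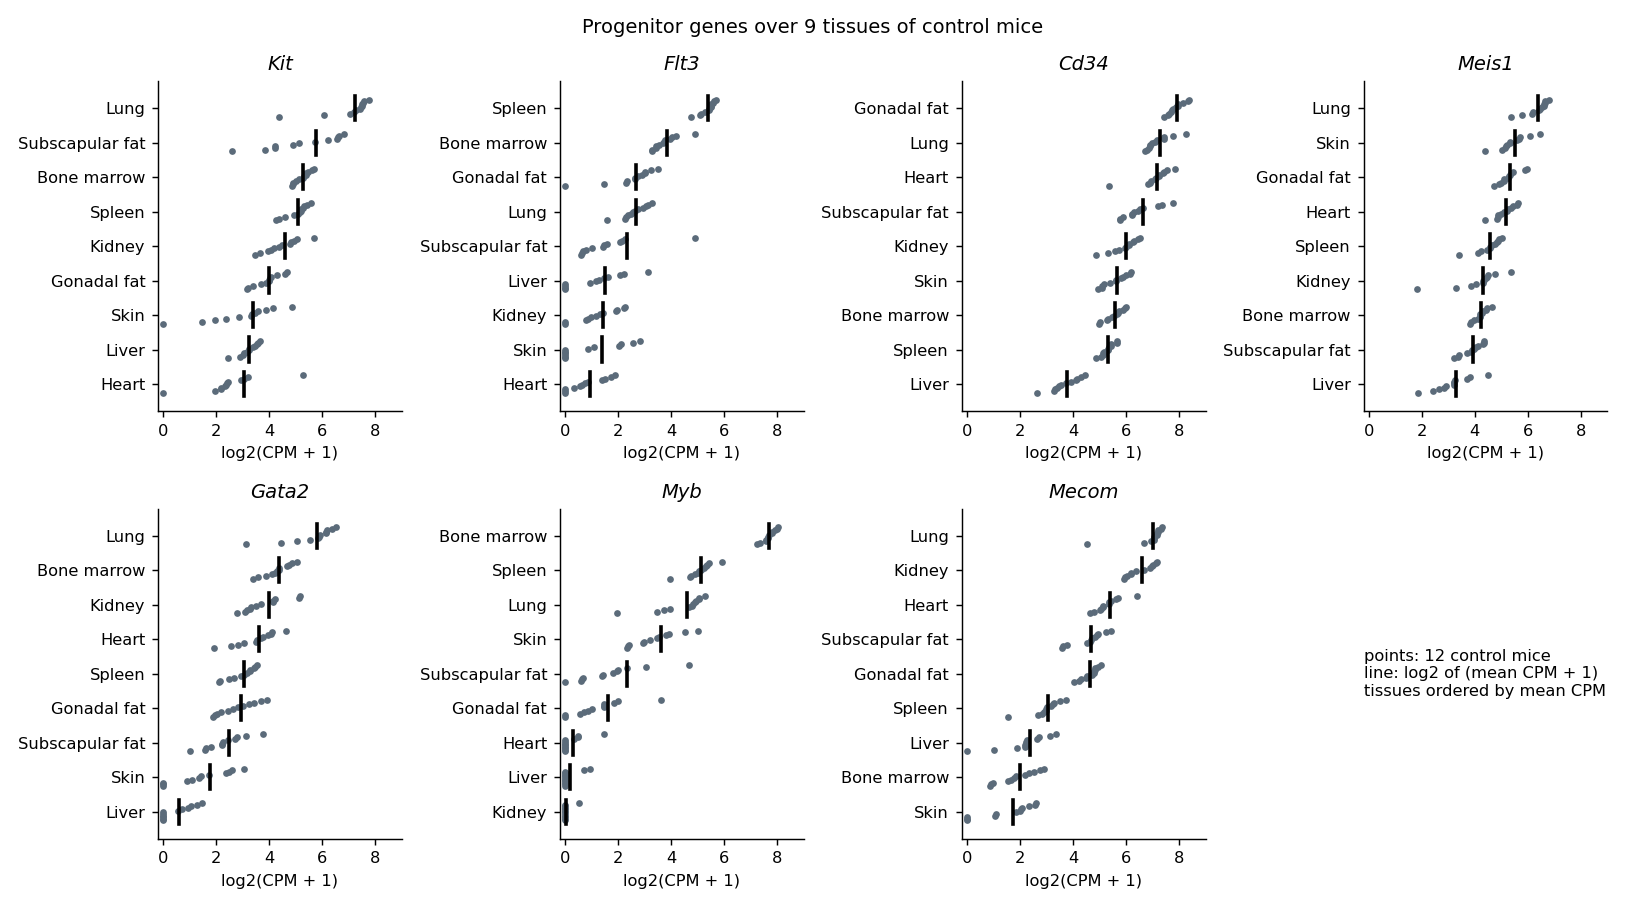
Levels of each gene over the 9 tissues of the 12 control mice, as log2(CPM + 1) on the horizontal axis, 1 point per mouse, with the mean as a vertical line and tissues ordered by their mean. Lung leads for Kit, Meis1, Gata2 and Mecom, while Myb is led by bone marrow and lies near 0 in heart, liver and kidney.

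Among the receptors, Kit ran in lung from 19.9 CPM to 215 CPM with a median of 174, and its lung mean was 151 ± 55.8 CPM (SD, n = 12). The lowest of these was the library of control male 68; without it the mean was 162.5 CPM and the lowest lung held 65.4 CPM. Kit followed in subscapular fat (53.2 ± 38.9 CPM), bone marrow (37.5 ± 7.30), spleen (32.8 ± 8.85) and kidney (23.03 ± 11.3). From subscapular fat down to liver, each tissue lay within 1 SD of the next, although within mice gonadal fat was above skin in 10 of 12. In gonadal fat the mean was 14.8 ± 5.24 CPM, and skin (9.41), liver (8.53) and heart (7.25) were lowest. The heart mean rested on control female 22, at 37.9 CPM; without it the mean of the other 11 was 4.46 ± 2.25 CPM, below liver (8.53 ± 2.07) by more than either SD. Mast cells also carry Kit, and the mean log2 CPM of mast cell genes had a median of 1.81 in control lungs and 2.55 in control gonadal fat. These means joined genes that ran in opposite directions. Over lungs of both arms without control male 68, Hdc had a median of 66.1 CPM. Cpa3 had 4.64 CPM there, Cma1 0.95 CPM, and Mcpt4 and Tpsb2 0 CPM. In gonadal fat without treated male 58, Hdc had 7.12 CPM, and Cpa3, Mcpt4, Cma1 and Tpsb2 had 10.2 to 12.2 CPM. In subscapular fat without control female 20, Cpa3, Mcpt4, Cma1 and Tpsb2 had 5.68 to 8.04 CPM. The part of mast cells in the Kit levels was not tested.

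Flt3 ran in spleen from 26.2 to 51.0 CPM with a median of 43.2, and in bone marrow from 8.60 to 29.1 CPM with a median of 12.1. No other tissue had a mean above 5.43 CPM, the value in gonadal fat. Lung stood at 5.40 ± 1.92 CPM, and liver, kidney, skin and heart at 0.941 to 1.84 CPM on average. In subscapular fat the mean of 4.01 ± 7.90 CPM rested on control female 20, at 28.8 CPM; without it the mean was 1.75 ± 1.22 CPM (SD, n = 11). The 2 blood-forming tissues led for Flt3.

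Cd34 was present in every tissue. Gonadal fat ran from 173 to 333 CPM (median 227), lung from 104 to 309 CPM (median 130) and heart from 39.7 to 227 CPM (median 144). The lung library of control male 68, which lacked lung genes and held adipocyte genes, was the highest lung at 308.6 CPM. The lowest heart was that of control female 22. Without these libraries the lung mean of 153 CPM became 139 CPM and the heart mean of 143 CPM became 152.8 CPM, so that heart came before lung, within 1 SD of it. Subscapular fat (99.5 ± 49.9 CPM), kidney (63.0 ± 18.8), skin (48.9 ± 14.7), bone marrow (47.0 ± 10.8) and spleen (38.7 ± 6.47) followed, and liver was lowest at 12.7 ± 4.68 CPM. Bone marrow was thus the 7th tissue of 9 for this progenitor marker, within 1 SD of both skin and spleen, and the ranges of spleen and liver did not overlap.

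Among the transcription factors, Myb was the most restricted. Bone marrow ran from 150.4 to 260 CPM with a median of 202, and spleen from 14.4 to 59.5 CPM with a median of 32.9, with no overlap. Lung (23.2 ± 10.8 CPM) and skin (11.3 ± 8.12) followed. Spleen lay within 1 SD of lung and was higher in 9 of 12 mice. By CPM of the total count, lung was tissue 2 and spleen tissue 3. Of the 12 control libraries, 11 held no Myb count in kidney, 10 in liver and 8 in heart.

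Meis1 was spread more evenly. Lung ran from 39.7 to 111 CPM with a median of 88.4, and from 54.5 CPM without control male 68. Skin (44.6 ± 17.6 CPM), gonadal fat (39.1 ± 11.1) and heart (34.8 ± 8.37) were each above spleen (23.1 ± 6.19) and bone marrow (17.7 ± 3.21), with kidney (18.9 ± 9.13) between them. Subscapular fat (14.2 ± 3.89) and liver (8.73 ± 5.01) were lowest. Skin, gonadal fat and heart lay within 1 SD of each other in turn, and so did spleen, kidney, bone marrow and subscapular fat.

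Gata2 ran in lung from 7.80 to 90.9 CPM with a median of 58.4, and its lowest lung was again that of control male 68, without which the lung mean of 55.2 CPM became 59.5 CPM. Bone marrow was the next tissue, at 19.6 ± 6.82 CPM, followed by kidney (15.1 ± 9.84) and heart (11.3 ± 5.70, or 10.2 without control female 22) within 1 SD of each other. Spleen stood at 7.18 ± 2.51 CPM and liver at 0.519 ± 0.636 CPM, with no count in 6 of 12 liver libraries.

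Mecom was low in blood-forming tissue. Lung ran from 22.0 to 163 CPM with a median of 138, where the lowest was control male 68 and the next lowest held 101.0 CPM. Kidney (96.8 ± 32.0 CPM) lay within 1 SD of lung (128 ± 37.2), but lung was higher in 10 of 12 mice. Without control male 68 the lung mean was 138 ± 17.0 CPM, above kidney by more than either SD. Heart (40.6 ± 16.0, or 36.6 ± 8.31 without control female 22) followed, then subscapular and gonadal fat (24.6 ± 9.61 and 24.3 ± 5.16). Spleen stood at 7.43 ± 2.60 CPM and bone marrow at 3.02 ± 1.91 CPM, a level that rested on 1 to 9 counts per library. Liver (4.16 ± 2.58) and skin (2.37 ± 1.88) lay within 1 SD of bone marrow.

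Likeness to other genes over the control libraries of all tissues, as Pearson's r of log2 CPM, is given as a description, since these libraries share mice, tissues and depth. The protein-coding genes closest to Mecom were Podxl (0.92), Flt1 (0.90) and Emcn (0.90), of which Flt1 and Emcn are genes of endothelium. Closest to Myb were Unc13d, Tbc1d8 and Gpr141 (all 0.92), and closest to Flt3 were Pml (0.91), Gpr132 (0.90) and Ms4a4b (0.90). For Cd34 they were Ogn (0.86), Mfap5 (0.86) and Gfpt2 (0.85), of which Ogn and Mfap5 encode matrix proteins. Kit was closest to Lpcat1 (0.78), Trpc6 (0.78) and Prr5l (0.76), Meis1 to Cyth3 (0.83), Thbd (0.81) and Arhgap44 (0.79), and Gata2 to Phactr2 (0.87), Ica1 (0.81) and Dgkh (0.79).

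Levels of different genes can be set side by side only per length. Per kilobase of merged exons, control marrow held Myb at 23.3 ± 3.77 CPM, followed by Cd34 (6.45 ± 1.48), Kit (4.20 ± 0.819), Gata2 (3.64 ± 1.26), Flt3 (2.17 ± 0.913), Meis1 (1.68 ± 0.305) and Mecom (0.243 ± 0.153). In spleen the order on this scale was Flt3 (6.66 ± 1.15), Cd34 (5.31 ± 0.888), Myb (3.801 ± 1.23), Kit (3.68 ± 0.993), Meis1 (2.19 ± 0.588), Gata2 (1.33 ± 0.4655) and Mecom (0.598 ± 0.209).

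Marrow and spleen of the 12 control mice were then compared by a test across 11514 genes, of which 71.3% passed (35.5% higher in marrow and 35.7% higher in spleen). Of the 7 members 6 could be tested, and 5 passed, which is near the share of all genes. Myb, Gata2 and Cd34 were higher in marrow, and Flt3 and Meis1 were higher in spleen.

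**Figure D2:**
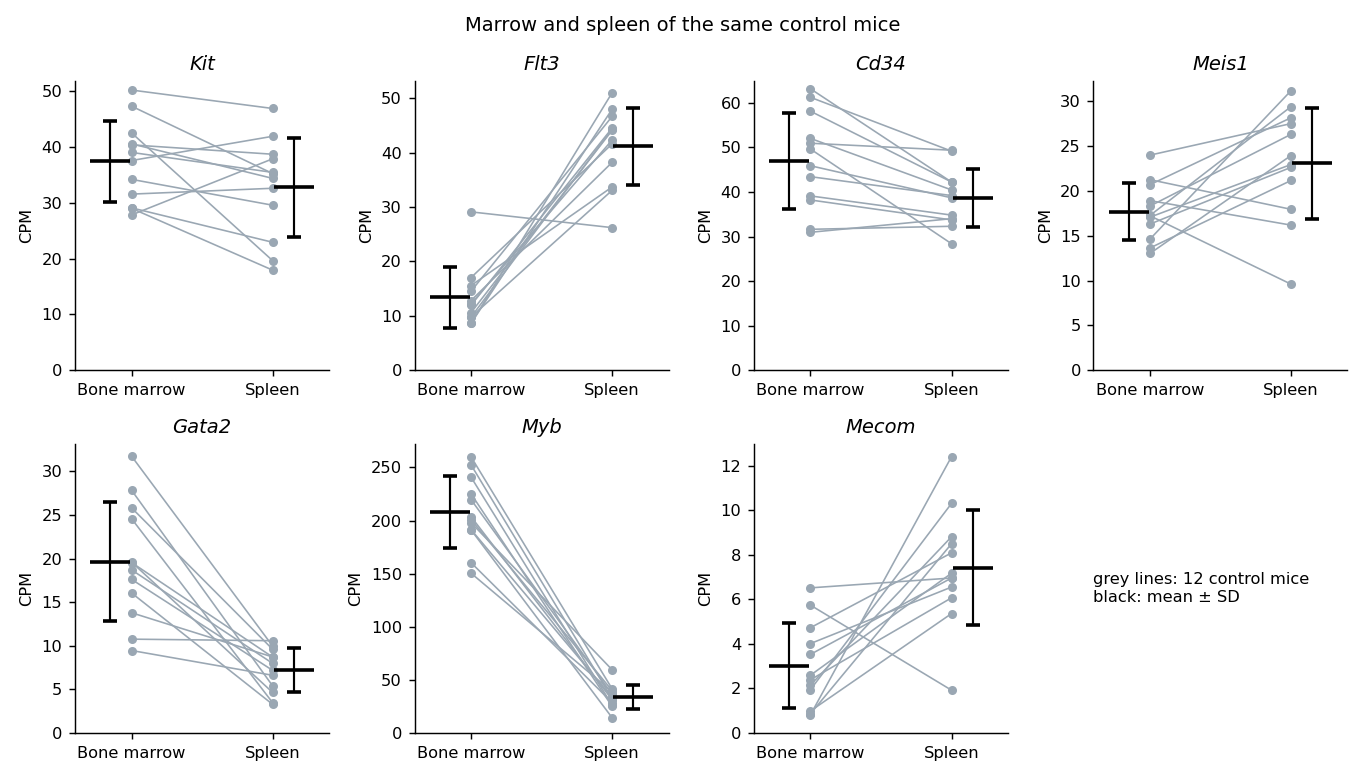
CPM of each gene in bone marrow and spleen, with a grey line for each of the 12 control mice and the mean ± SD in black. All 12 mice are higher in marrow for Myb and Gata2, and 11 of 12 are higher in spleen for Flt3 and for Mecom.

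Myb was 2.68 ± 0.11 higher in marrow on the log2 scale (SE, edgeR quasi-likelihood test, adjusted p = 1.38e-18), in 12 of 12 mice. Gata2 was 1.51 ± 0.20 higher (edgeR, adjusted p = 1.18e-07), also in 12 of 12 mice, although the ranges of the 2 tissues overlapped. Cd34 was higher by 0.39 ± 0.11 (edgeR, adjusted p = 0.0025), in 10 of 12 mice. In the other 2, control female 20 and control male 71, spleen was higher by a small margin (32.3 against 31.6 CPM and 34.0 against 30.9 CPM). Flt3 differed the other way, by -1.50 ± 0.14 (edgeR, adjusted p = 3.94e-10), and was higher in spleen in 11 of 12 mice, the exception being control female 18 with 29.1 CPM in marrow and 26.2 CPM in spleen.

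Meis1 passed narrowly at -0.32 ± 0.14 (edgeR, adjusted p = 0.0407), higher in spleen in 9 of 12 mice. With the mouse as a replicate block it did not pass (-0.31 ± 0.14, adjusted p = 0.0547, edgeR), and leaving out any of control mice 4, 18, 45, 55, 61, 68 or 71 also ended the call, with values of -0.31 to -0.28. It was also not called with RLE scaling or without the abundant features (adjusted p = 0.0535 for both, edgeR) and without the low count filter (adjusted p = 0.145, edgeR). Kit did not pass (0.23 ± 0.13, adjusted p = 0.116, edgeR) and was higher in marrow in 9 of 12 mice, but passed with the mouse as a block (0.29 ± 0.11, adjusted p = 0.0322, edgeR). Mecom was too low to be tested, and its mean was 2.46 times as high in spleen, with 11 of 12 mice higher there.

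Marker lists of other cells moved between the same libraries. All 11 mature neutrophil genes were higher in marrow (median log2 difference 7.35), as were all 10 proliferation genes (median 1.13) and 8 of the 9 tested granulocyte-monocyte progenitor genes (median 4.68, Cebpe at 6.04 ± 0.24, Elane, a granule protease, at 5.34 ± 0.24). All 5 B cell and all 5 T cell genes were higher in spleen, and so were 5 of 6 tested endothelial genes and 3 of 4 tested dendritic cell genes. Their part in the member differences was not tested. Among 23 other stem and progenitor genes 15 were tested, of which 7 were higher in marrow (Erg at 2.07 ± 0.16) and 5 in spleen (Ly6a, which encodes Sca-1, at -3.18 ± 0.13). Of the ligands and niche genes 5 of 10 were tested, and 4 were higher in spleen, among them Kitl, the ligand of Kit, at -2.35 ± 0.23 and the leptin receptor Lepr at -1.09 ± 0.15, and 1 in marrow. Of 15 signalling genes downstream of Kit and Flt3, 14 were tested, with 4 higher in marrow and 5 in spleen.

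In bone marrow, the arms differed most for Flt3, Meis1 and Kit among the members. Flt3 ran from 8.60 to 29.1 CPM in the 12 control mice (median 12.1) and from 12.8 to 28.6 CPM in the 10 treated mice (median 17.7). All 10 treated mice lay above the control median, 7 control mice lay below every treated mouse, and the highest mouse of all was a control female. The log2 difference between treated and control was 0.41 ± 0.14. Meis1 ran from 13.02 to 23.98 CPM (median 17.2) in control and from 12.3 to 41.3 CPM (median 24.4) in treated mice, with 5 treated mice above all controls and 1 below all, and a log2 difference of 0.35 ± 0.13. Kit ran from 27.8 to 50.2 CPM (median 38.3) in control and from 35.8 to 63.8 CPM (median 47.8) in treated mice, with 4 treated mice above all controls and a log2 difference of 0.28 ± 0.12.

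The other members lay closer together. Cd34 had a control median of 47.8 CPM (30.9 to 63.1) and a treated median of 57.2 CPM (36.6 to 65.2), a log2 difference of 0.15 ± 0.11. Gata2 had medians of 19.1 and 20.9 CPM (0.05 ± 0.17), Myb of 202 and 224 CPM (0.00 ± 0.08) and Mecom, not tested, of 2.49 and 3.34 CPM. The arms overlapped for all 7. These differences had chosen the list, so nothing is read from them. Across all 12891 genes of marrow 0.00776% passed the test, which is 1 gene (edgeR, 905 genes at an unadjusted p under 0.05; 2 genes passed by DESeq2). Split by sex, Flt3 had means of 16.3 and 22.0 CPM in control and treated females and of 10.48 and 15.9 CPM in control and treated males. The Meis1 means were 19.9 and 30.3 CPM in females and 15.5 and 19.0 CPM in males. Those of Kit were 36.7 and 44.2 CPM in females and 38.2 and 52.7 CPM in males.

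**Figure D3:**
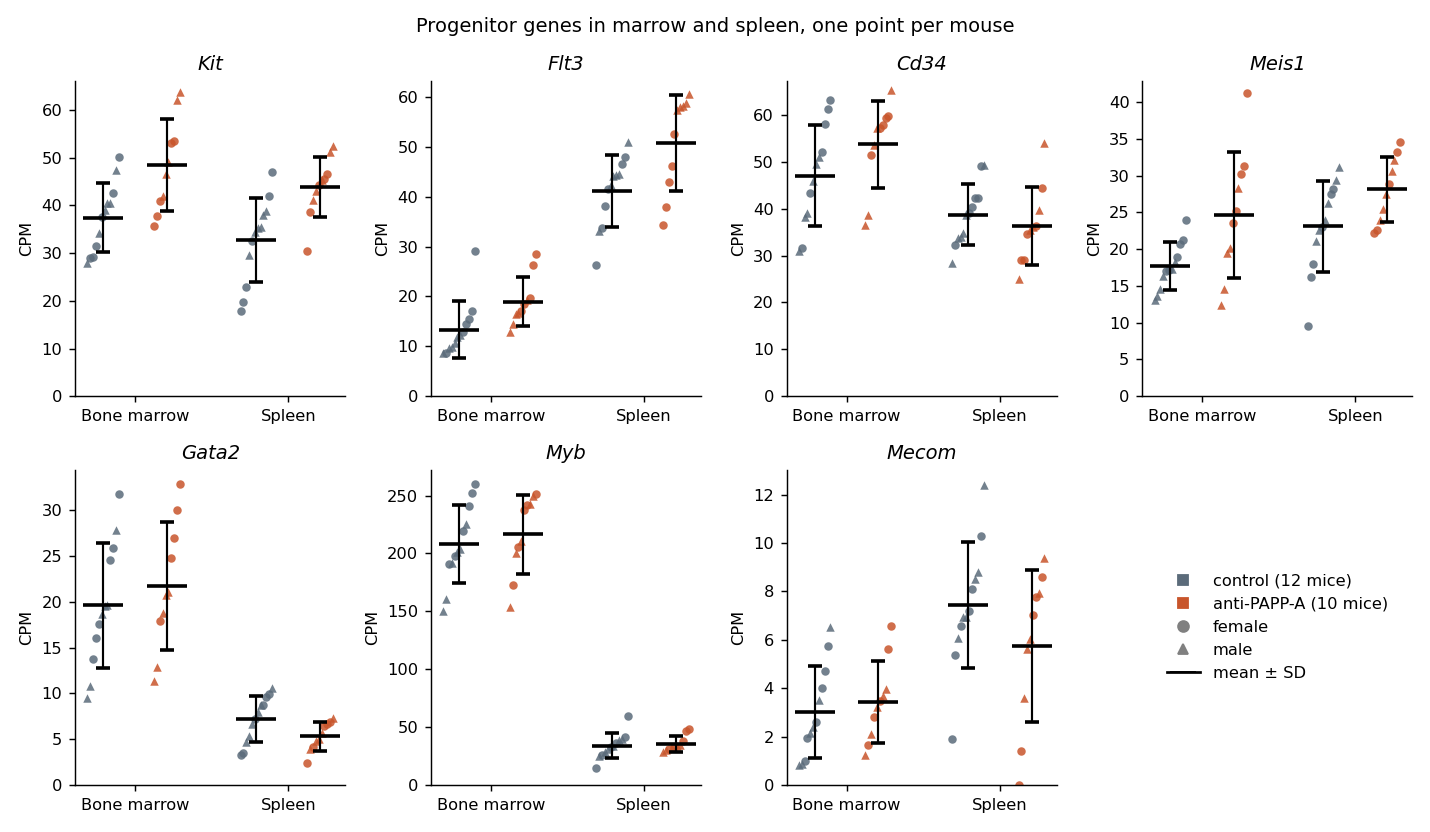
CPM of each gene in bone marrow and spleen of 12 control and 10 anti-PAPP-A mice, 1 point per mouse, circles for females and triangles for males, with the mean ± SD in black. In marrow all 10 treated mice lie above the control median of 12.1 CPM for Flt3, and the arms overlap in every panel. The genes were chosen by the marrow difference between arms, so nothing is read from it.

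Markers of other marrow cells were read in the same arms. The neutrophil list was set beside the members because its genes had moved with them in earlier results of these data. Its values in this contrast are therefore a description. The mean log2 CPM of the 11 mature neutrophil genes ran from 10.0 to 10.9 in control marrow (median 10.3) and from 9.74 to 10.52 in treated marrow (median 10.1), and 0 of the 11 genes had a log2 difference above 0, with a median of -0.29. The 4 megakaryocyte genes tested of 6 all had differences above 0, with a median of 0.30 and Itga2b at 0.46 ± 0.13. None of these genes passed (edgeR, adjusted p of at least 0.547). An unadjusted p under 0.05 was reached by 8 of the 11 neutrophil genes, against 905 of all 12891 genes (edgeR). Since earlier results of these data led to the choice of the neutrophil list, nothing is read from this count. The part of these cells in the member differences was not tested. The 10 proliferation genes had a median difference of -0.04 and the 9 erythroid genes tested one of 0.02. All genes had a median of -0.01 in this comparison.

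Other genes of the pathway in treated marrow gave no call. Of 23 further stem and progenitor genes 17 were tested and 0 passed (edgeR; 3 at an unadjusted p under 0.05), with a median of 0.07 and 12 above 0. Those with the smallest p were Ikzf2 (0.30 ± 0.12), Gfi1b (0.46 ± 0.21) and Slamf1 (0.28 ± 0.14). Of the ligand and niche genes 6 were tested and 0 passed (2 at an unadjusted p under 0.05), with Lepr at -0.53 ± 0.21, Vcam1 at 0.26 ± 0.13 and Cxcl12, a chemokine of the stem cell niche, at -0.30 ± 0.16. Of the signalling genes 14 were tested and 0 passed (3 at an unadjusted p under 0.05), with Ptpn6, a phosphatase that restrains Kit, at -0.19 ± 0.07 and the feedback phosphatase Dusp6 at -0.27 ± 0.11.

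Spleen, whose treatment contrast did not choose the members, held no gene past the test among 11978 (0% called; 633 genes had an unadjusted p under 0.05). Of the 5 members tested, 0 passed (2 at an unadjusted p under 0.05). Flt3 ran from 26.2 to 51.0 CPM in control mice (median 43.2) and from 34.4 to 60.5 CPM in treated mice (median 54.98), with 6 treated mice above every control and 3 controls below every treated mouse. The difference was 0.30 ± 0.10 (edgeR, adjusted p = 0.853). Kit ran from 17.9 to 46.9 CPM (median 34.8) in control and from 30.4 to 52.4 CPM (median 44.8) in treated mice, 9 of 10 treated mice lay above the control median, and the difference was 0.33 ± 0.12 (edgeR, adjusted p = 0.853). These spleen values rested on 8 to 98 counts of Flt3 and 5 to 122 counts of Kit per control library. Treated libraries held 22 to 73 counts of Flt3 and 26 to 65 counts of Kit. The spleens and marrows came from the same mice. Dendritic cell genes, whose cells are known to carry Flt3, were read in the same libraries: 4 of 5 tested lay above 0, with Itgax at 0.36 ± 0.10 (edgeR, adjusted p = 0.853), and their part in the Flt3 values was not tested.

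Meis1 had medians of 23.4 CPM in control and 28.2 CPM in treated spleens (0.20 ± 0.13, adjusted p = 0.988, edgeR). Myb (0.01 ± 0.14) and Cd34 (-0.06 ± 0.12) did not pass either. Gata2 and Mecom were too low to be tested. Gata2 ran from 3.28 to 10.6 CPM in control (median 7.58) and from 2.34 to 7.31 CPM in treated spleens (median 5.33). None of the treated mice reached the control median, and 6 control spleens were above all treated ones. These values rested on 1 to 29 counts per control library and 2 to 7 counts per treated library. The share of all genes that separated as far was not computed, so nothing is read from this. Mecom had medians of 7.07 and 6.52 CPM.

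Other lists in spleen held no call. All 7 tested erythroid genes had differences below 0, with a median of -0.9964, and all 3 tested megakaryocyte genes had differences above 0, with Itga2b at 0.46 ± 0.17 (edgeR, adjusted p = 0.853). The mean log2 CPM of the erythroid genes ran from 4.01 to 7.95 in control and from 4.21 to 6.30 in treated spleens. Their part in the member values was not tested. Of the other stem and progenitor genes 16 were tested and 0 passed (edgeR; 4 at an unadjusted p under 0.05), led by Etv6 at 0.20 ± 0.07, Ikzf2 at 0.39 ± 0.14 and Lmo2 at -0.25 ± 0.10. Of the 7 ligand and niche genes tested 0 passed (1 at an unadjusted p under 0.05), 6 lay above 0, and Lepr was at 0.26 ± 0.11, against a value below 0 in marrow.

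Over the 8 tissues other than bone marrow, 32 of 56 member and tissue pairs had enough counts to be tested, and 0 passed by edgeR, DESeq2 or limma-voom. An unadjusted p under 0.05 was reached by 2 of the 32 in edgeR (Kit and Flt3 in spleen), 2 in DESeq2 and 4 in limma-voom, and the lowest adjusted p was 0.713, 0.741 and 0.699 in turn. In lung, heart, kidney, liver, skin, gonadal fat and subscapular fat, too, 0% of the genes tested passed in edgeR. Of the 32 differences 19 lay above 0, and they ran from -0.59 to 0.33.

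**Figure D4:**
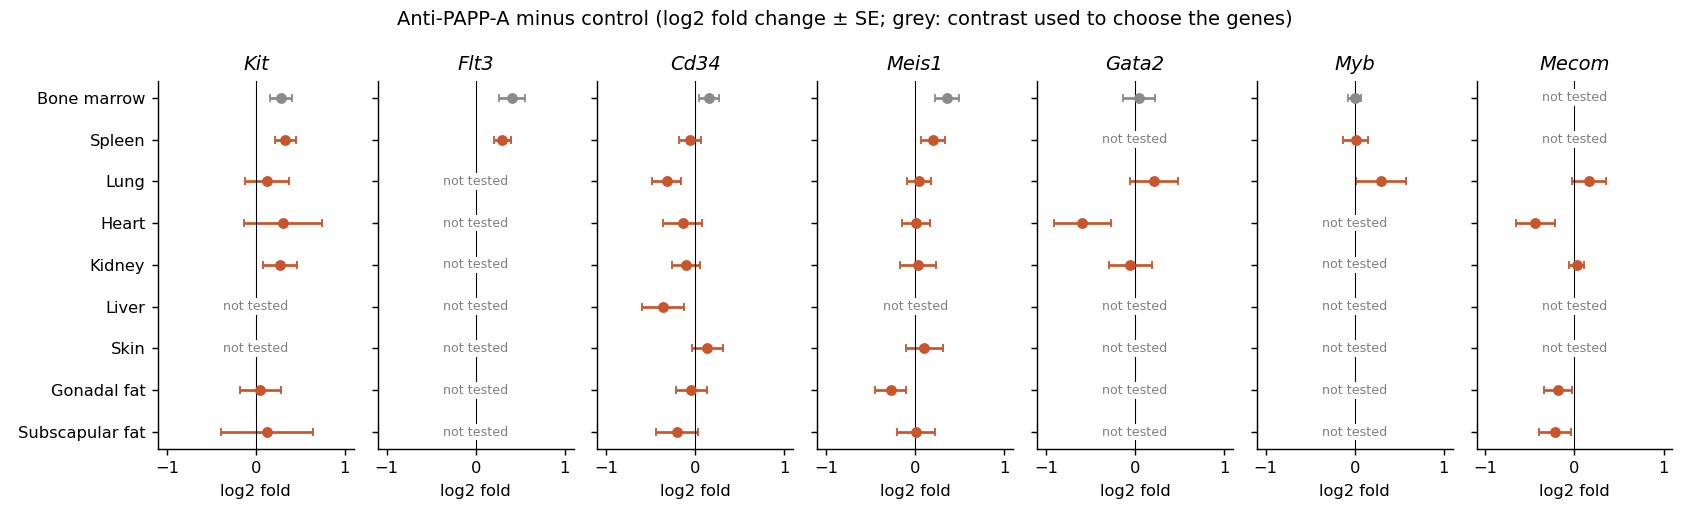
Log2 fold change ± SE of anti-PAPP-A against control mice for each gene and tissue, from the test across all genes of that tissue; grey marks the marrow contrast by which the genes were chosen. Kit lies above 0 in all 6 other tissues where it was tested. In lung, gonadal fat and subscapular fat it fell below 0 under at least 1 alternative. Cd34 lies below 0 in 7 of 8 (above 0 in gonadal fat without the library in doubt). None of the 32 values outside marrow passed the test, and the tissues come from the same mice, so their signs are not independent.

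Kit lay above 0 in all 6 of these tissues where it was tested, from 0.05 ± 0.23 in gonadal fat to the spleen value. In kidney it was 0.27 ± 0.19, in heart 0.31 ± 0.44 (0.42 ± 0.30 without the libraries in doubt), and in lung 0.12 ± 0.25. The lung and gonadal fat values fell to 0.00 ± 0.16 and -0.04 ± 0.24 without the libraries in doubt, and in subscapular fat the value of 0.12 ± 0.51 was -0.17 ± 0.54 by limma-voom and -0.03 ± 0.53 with sex left out. Cd34 lay below 0 in 7 of 8 tissues, with -0.37 ± 0.24 in liver and -0.32 ± 0.16 in lung as the lowest and skin (0.13 ± 0.17) as the exception. Without the library of control male 68 the lung value was -0.18 ± 0.12, and in gonadal fat it was 0.03 ± 0.16 without the library in doubt. Mecom was -0.44 ± 0.22 in heart, from a control median of 36.96 CPM to a treated median of 24.8 CPM, and 0.03 ± 0.09 in kidney, its most precise value. Gata2 was -0.59 ± 0.32 in heart and 0.22 ± 0.27 in lung (0.09 ± 0.20 without control male 68). Without the heart libraries in doubt these heart values were -0.16 ± 0.12 for Mecom and -0.34 ± 0.29 for Gata2. Meis1 lay above 0 in 6 of 7 tissues with values of -0.28 to 0.20, of which those of lung, heart, kidney and subscapular fat were within 0.05 of 0. In lung, heart and subscapular fat its sign changed under at least 1 alternative.

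Males and females were compared in the same way. Of 38 member and tissue pairs tested, 4 passed by edgeR, in kidney and the 2 fat depots. By DESeq2, which gave no adjusted p for 1, 6 passed, and by limma-voom 5. Of the 38, 25 were lower in males. Among all genes, the share higher in males ran from 46.4% in kidney to 53.8% in subscapular fat. The share past the test (edgeR) ran from 0.14% in lung to 28.3% in liver. The tissues come from the same mice, so the pairs are not independent and nothing is read from the pooled counts. In these comparisons males were set against females over both arms, with treatment as a covariate and 11 mice of each sex.

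**Figure D5:**
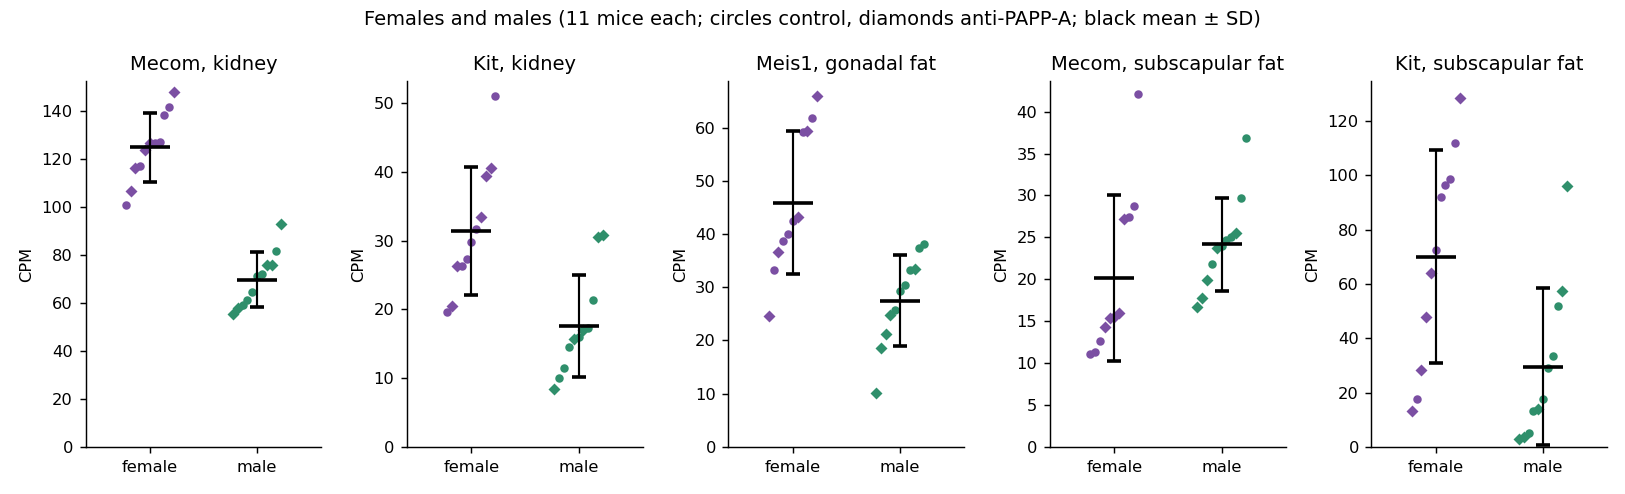
CPM in females and males, 11 mice each, for Mecom and Kit in kidney, Meis1 in gonadal fat and Mecom and Kit in subscapular fat, with circles for control, diamonds for anti-PAPP-A and the mean ± SD in black. For Mecom in kidney the lowest female, at 101 CPM, lies above the highest male, at 92.7 CPM. The share of all kidney genes without overlap was not computed.

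In kidney 26.1% of 11476 genes passed for sex, 13.2% lower in males and 12.9% higher. Of the 5 members tested, 2 passed and all 5 lay below 0. Mecom ran from 101 to 148 CPM in females (median 127) and from 55.4 to 92.7 CPM in males (median 71.2). The sexes did not overlap, but the share of all kidney genes without overlap was not computed, so nothing is read from this. The Mecom difference was -0.77 ± 0.09 (edgeR, adjusted p = 1.81e-07). The means were 125 CPM in control and 124 CPM in treated females, and 68.3 and 71.5 CPM in control and treated males. Kit ran from 19.7 to 51.1 CPM in females (median 29.8) and from 8.40 to 30.8 CPM in males (median 15.9), with 8 of 11 males below every female, a difference of -0.76 ± 0.19 (edgeR, adjusted p = 0.00394). Both passed in all 22 fits that left out 1 mouse.

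Cd34 (-0.41 ± 0.16, adjusted p = 0.054, edgeR), Gata2 (-0.57 ± 0.24, adjusted p = 0.0818, edgeR) and Meis1 (-0.29 ± 0.20, adjusted p = 0.311, edgeR) did not pass in kidney. Cd34 passed by DESeq2 (adjusted p = 0.0499) and limma-voom (0.0406), and without any of control mice 22, 37 and 55 or treated mouse 58 (edgeR, adjusted p of 0.0214 at the lowest). Gata2 passed without treated mouse 36 or 56. Kitl, the ligand of Kit, was lower in male kidney by -0.50 ± 0.09 (edgeR, adjusted p = 0.0001), the 1 of 6 tested ligand and niche genes that passed. Of 12 other stem and progenitor genes tested 3 were higher in males, with Ly6a at 0.75 ± 0.08, and 3 lower, with Ikzf2 at -0.69 ± 0.18. Of 14 signalling genes 2 were lower, Socs2 at -1.32 ± 0.20 and Sh2b3, an adaptor that restrains Kit signalling, at -0.42 ± 0.12. Of the 9 endothelial genes 0 passed (edgeR; 0 at an unadjusted p under 0.05), with a median of 0.07 and Emcn, close to Mecom over tissues, at 0.20 ± 0.12. Genes of other kidney and fat cells differed between the sexes: the tubule genes Slc12a1 (-0.52 ± 0.18) and Umod (-0.51 ± 0.18) were lower in males, Kap (2.73 ± 0.38) was higher, and so were 3 of 4 tested adipocyte genes (Cidec at 1.83 ± 0.58). Their part in the member differences was not tested.

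In gonadal fat 15.1% of 11993 genes passed for sex, 6.47% lower in males. Of the 4 members tested, 1 passed. Meis1 ran from 24.7 to 65.9 CPM in females (median 42.4) and from 10.2 to 38.2 CPM in males (median 29.3), and all 11 males lay below the female median. Its difference was -0.77 ± 0.18 (edgeR, adjusted p = 0.00509), and it passed in all 22 fits that left out 1 mouse and without the library in doubt. Cd34 was -0.41 ± 0.17 (edgeR, adjusted p = 0.119), with all 11 males below the female median of 283 CPM. Among the other stem and progenitor genes Runx1 (0.79 ± 0.17) and Lmo2 (0.65 ± 0.13) were higher in males. Other cells' genes moved with sex in the same depot: all 4 general leukocyte genes were higher in males (Ptprc at 0.88 ± 0.18), and 2 of 5 stromal genes were lower (Pi16 at -1.88 ± 0.28, Dpp4 at -0.98 ± 0.23). Their part in the Meis1 difference was not tested.

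In subscapular fat 15.5% of 11019 genes passed, 9.58% higher in males, and 1 of the 4 members tested was among them. Mecom ran from 11.05 to 42.1 CPM in females (median 15.5) and from 16.7 to 36.8 CPM in males (median 23.9), and no male lay below the female median. The difference of 0.54 ± 0.18 passed narrowly (edgeR, adjusted p = 0.0482). It did not pass by limma-voom (adjusted p = 0.055), nor in 17 of the 22 fits that left out 1 mouse (0.46 to 0.66 over all 22), and the call held with mouse 4, 11 or 71 (control) or 41 or 56 (treated) removed. The number of genes past the test for sex in this depot was 1707 with all mice and ran from 865 to 2138 over the same fits. It fell to 1130 or fewer when mouse 55, 61 or 68 (control) or 6, 36, 62 or 70 (treated) was removed. The endothelial gene Kdr was higher in males as well, by 0.74 ± 0.23 (edgeR, adjusted p = 0.0378), and 7 of 9 endothelial genes lay above 0, while the stromal genes Thy1 (-0.87 ± 0.23) and Pdgfra (-0.78 ± 0.25) and the transcription factor Runx1 (-2.17 ± 0.40) were lower. Their part in the Mecom difference was not tested.

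Kit in subscapular fat ran from 13.1 to 128 CPM in females (median 72.6) and from 2.97 to 95.9 CPM in males (median 17.8), and 10 of 11 males lay below the female median. The difference of -0.84 ± 0.52 did not pass (edgeR, adjusted p = 0.275). The SE of this difference was the largest among the member tests for sex. It ran from -1.22 to -0.71 over the fits that left out 1 mouse, none of which passed.

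In bone marrow 0.721% of 12891 genes passed for sex, and 0 of the 6 members tested (edgeR; 3 at an unadjusted p under 0.05). Meis1 was -0.40 ± 0.13 (edgeR, adjusted p = 0.166), Flt3 -0.43 ± 0.14 (adjusted p = 0.174) and Kit 0.27 ± 0.12 (adjusted p = 0.318), so that 2 of these 3 had lower and 1 had higher values in males. In spleen 4.54% of 11978 genes passed (2.07% higher and 2.47% lower in males) and 0 of the 5 members (edgeR; 1 at an unadjusted p under 0.05). Flt3 there was 0.31 ± 0.10 (edgeR, adjusted p = 0.0768), the opposite sign to marrow, and it passed by limma-voom (0.35 ± 0.09, adjusted p = 0.0253). In liver Cd34 was -0.61 ± 0.23 (edgeR, adjusted p = 0.0519), where 28.3% of 8897 genes passed, and it passed by DESeq2 (adjusted p = 0.0416). No member passed in lung, heart or skin, where 0.0466%, 0.116% and 0.202% of genes were higher and 0.0931%, 0.0711% and 0.111% lower in males. Whether these sex differences themselves differed between tissues was not tested.

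The effect of treatment was also compared between the sexes. Of 38 tests 0 passed by edgeR, DESeq2 or limma-voom (2 at an unadjusted p under 0.05 in each), where DESeq2 gave no adjusted p for 2 of the 38. In edgeR these were Gata2 in kidney (1.19 ± 0.44, adjusted p = 0.972) and Cd34 in liver (-1.06 ± 0.45, adjusted p = 1.0). Across all genes 0.00835% passed in spleen (1 gene) and 0% in each of the other tissues. Treated females held Gata2 in kidney at a mean of 13.1 CPM against 21.7 CPM in control females, and treated males at 12.8 CPM against 8.46 CPM.

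Lastly, the members were set against each other across mice, within marrow and within spleen, after removal of sex and arm means. Of 42 pairs 0 passed (100000 permutations within sex and arm, two-sided, adjusted over the 42), with 1 at an unadjusted p under 0.05 by Pearson's r and 3 by Spearman's rho. The lowest p by r was that of Myb with Mecom in spleen (r = -0.46, permutation p = 0.0379, adjusted p = 0.764, rho = -0.43, permutation p = 0.0736, n = 22; r = -0.40 without the 2 most extreme mice). In spleen Kit had r = 0.54 with Gata2 (permutation p = 0.0581, adjusted p = 0.764, rho = 0.61, permutation p = 0.016, adjusted p = 0.462), and r = 0.67 without the 2 most extreme mice. With Myb it had r = 0.59 (permutation p = 0.075, adjusted p = 0.764, rho = 0.58, permutation p = 0.022, adjusted p = 0.462), and r = 0.40 without the 2 most extreme mice. Flt3 and Meis1, both higher on average in treated mice, had r = -0.48 with each other in spleen (permutation p = 0.107, rho = -0.52, permutation p = 0.0462, adjusted p = 0.539). In marrow the lowest permutation p was 0.105, for Kit with Mecom (r = -0.38). Over the same 22 marrow libraries the protein-coding genes closest to Kit, Flt3 and Meis1 were Ifit2 (r = 0.82), Mrps18a (0.80) and Itga4 (0.75), given as a description.

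Against the mean of the mature neutrophil genes in marrow, 0 of the 7 members passed, with 3 at an unadjusted p under 0.05 by r. Kit had r = 0.48 (permutation p = 0.0395, adjusted p = 0.112, rho = 0.45, permutation p = 0.0565). Cd34 had r = -0.48 (permutation p = 0.0436, adjusted p = 0.112, rho = -0.50, permutation p = 0.0421) and Myb r = -0.43 (permutation p = 0.0479, adjusted p = 0.112, rho = -0.43, permutation p = 0.0648), each over 22 mice. Without the 2 mice farthest from the median these were 0.46, -0.59 and -0.37. Scaled without TMM, Cd34 had r = -0.67 (permutation, adjusted p = 0.0248). Flt3 (-0.21), Meis1 (-0.01), Gata2 (-0.24) and Mecom (-0.14) lay nearer to 0.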

How the data were processed

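The authors deposited raw whole-number counts per gene for 22 mice and 9 tissues. Per the labels' protocols, the libraries were stranded and made from total RNA. FastQC 0.11.5, Salmon and mm10 are named in the submitters' processing notes. How estimates became whole numbers is not given in the sources used here. Levels were computed as CPM, scaling to the counts outside 9 features whose share averaged 0.9% or more. Of 47712 Ensembl identifiers 47462 were found in GENCODE vM21, all 7 members in the same version, and 498 gene names were shared by several features.

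The labels gave the groups. The replicate is the mouse. The members and gene lists were chosen with earlier results of these data known. Genes were tested with edgeR 4.0.16 (R 4.3.3) quasi-likelihood tests on the counts, with TMM scaling and filterByExpr, and with sex or treatment as covariate. P-values were adjusted by Benjamini-Hochberg over all genes tested in a tissue, with a threshold of 0.05. The standard error of a log2 fold change is its size divided by the square root of F; edgeR bounds some p-values from below by a Poisson test, so a p can be larger than the standard error implies. DESeq2 1.42.0, limma-voom (limma 3.58.1), other scalings and filters, and fits without single mice or the 5 libraries in doubt were alternatives. A library was in doubt where the mean of the tissue's own markers fell over 2 log2 units short of the median library or fewer than 1000 genes had 10 counts. For each list up to 3 genes with the smallest p are named, and for each member the 3 closest genes by correlation. A few genes that these rules name are not reported here. Relations used 100000 permutations within sex and arm. Marrow and spleen of 1 mouse share its number in the labels, so the pairing comes from the animal; deviations of the 2 tissues correlated at 0.0431 on average over mice (-0.2084 to 0.3817). In counts simulated from these libraries the marrow treatment fit (13084 genes) recovered 58.2% of 1.5-fold, 96.9% of 2-fold and 100% of 4-fold changes with 0 false calls. The spleen fit (10757 genes) recovered 72.1%, 95.1% and 100% with 8 false calls, the lung fit (12751 genes) 33.8%, 81.2% and 100% with 6, and marrow against spleen (12069 genes) 65.8%, 91.8% and 100% with 2. The simulation changed many genes at once, up to 4-fold, and drew each gene independently. Its rates can therefore exceed those of the treatment tests on the real counts. Levels, relations and plots were made in Python 3.11.15 (numpy 2.4.6, pandas 2.3.3, matplotlib 3.10.9).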

Additional observations from a re-analysis of the deposited data

Results flagged for a closer look

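Of 61 groups of 10 treated libraries examined, 7 held a library separated from the rest by a gap above Dixon's 95% critical value. Chance alone separates about 1 group in 20 where groups are independent and values normal. These groups share libraries and some rest on few counts, so their number cannot be set against that rate. In heart, treated male 56 stood above the other 9 for Myb (545.3 CPM, next 8.605), Flt3 (15.27 CPM, next 1.819) and Kit (23.71 CPM, next 8.605). This library also held the immature T cell genes Rag1 and Dntt at 3264 and 775 CPM, and their part in these values was not tested. Without it the treated heart means were 1.09 ± 2.83 CPM for Myb, 0.718 ± 0.580 CPM for Flt3 and 5.70 ± 2.06 CPM for Kit (SD, n = 9). In subscapular fat, treated female 36 was highest for Myb (13.7 CPM, next 5.676) and Cd34 (213.5 CPM, next 97.4). In skin, treated female 33 was highest for Gata2 (4.849 CPM, next 2.503), and treated female 36, a library of 33377 usable counts, held no Cd34 count (0 CPM, next lowest 38.46).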

How the results depend on the processing

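Among results for single genes, 466 kept direction and side of the threshold under other settings and 561 when 1 mouse was left out. Marrow treatment values, which had no test, were counted among these if they moved by less than the SD between mice, whatever their sign. With the mouse as a replicate block, the difference between marrow and spleen passed for Kit (0.29) and no longer for Meis1 (-0.31), and no other member call changed. Shares of genes past the threshold, in percent of those tested, moved by over 1.5 times in number with DESeq2. Treatment gave 0.0155% in marrow and 0.0174% in kidney (2 genes each). Sex gave 1.62% in marrow, 0.4656% in lung, 0.489% in heart and 1.09% in skin, against 0.721%, 0.14%, 0.187% and 0.313% by edgeR. Sex by treatment gave 0.0854% in lung, 0.111% in skin, 0.0112% in liver and 0.00908% in subscapular fat. The cause was not tested. With limma-voom sex by treatment in spleen gave 0%. Without the low count filter treatment in liver gave 0.00324% and marrow against spleen 41.4% (14475 genes), as more genes were tested. Without the libraries in doubt, an alternative chosen after seeing the data for sex and its interaction, sex gave 0.552% in heart and 0.597% in skin. Leaving out 1 mouse, for sex also chosen after seeing the data, gave 69.35% to 71.21% for marrow against spleen, 23.7% to 26.1% for sex in kidney, 11.3% to 17.4% in gonadal fat and 7.999% to 19.37% in subscapular fat. Scaled without TMM, 1 of 7 members passed against the neutrophil genes. By other scalings Meis1 had bone marrow as tissue 8 and Cd34 as tissue 6 in its order, each 7 otherwise.

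The values that changed sign were all uncalled or, in the marrow treatment contrast, not tested. For treatment they were Kit (-0.000569) and Meis1 (-0.03002) in lung and Kit (-0.03845) and Cd34 (0.0322) in gonadal fat without the libraries in doubt; Meis1 in heart with DESeq2 (-0.005936), limma-voom (-0.01436) and no filter (-0.01073); and in subscapular fat Kit with limma-voom (-0.1662) or without sex (-0.03128) and Meis1 with no filter (-0.004687). Myb in spleen ran from -0.03106 to 0.08002 over the mice left out. In marrow, over the mice left out, Gata2 ran from -0.02021 to 0.1177 and Myb from -0.03265 to 0.04065. Under the other settings the marrow value of Myb ran from -0.002168 to 0.01389. For sex they were Gata2 in lung (-0.002467) and Kit in heart (0.1355) with limma-voom, and Kit (0.01575) and Cd34 (-0.00234) in heart without the libraries in doubt. For sex by treatment they were, with limma-voom, Cd34 in marrow (-0.01467), Gata2 (-0.1094) and Mecom (-0.1473) in heart and Kit in gonadal fat (0.06534); with DESeq2, Gata2 in lung (-0.01058); and without the libraries in doubt, Gata2 (-0.1757) and Cd34 (0.01561) in lung. Depth limits the low members: 24 of 56 pairs of member and tissue outside marrow had too few counts to be tested.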
